A study of Mus musculus with 20 samples.

Results

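The genes described here encode the proteins that write, erase and read DNA methylation. They are Dnmt1, Dnmt3a and Dnmt3b, with their cofactors Uhrf1 and Hells, the erasers Tet1, Tet2, Tet3 and Tdg, and the reader Mbd2. They were chosen by name, and every CpG listed within each annotated gene or 1 kb either side of it was taken, which gave 10 genes of 49943 in the gene table and 1168 CpGs of 1253074 listed at either age. The readout is the methylation of the genes themselves. It came from reduced representation bisulfite sequencing, in which an enzyme cuts out CpG-rich fragments for reading, and it says nothing directly of the levels of their RNA or protein.

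The libraries were made from DNA of a brain homogenate in which microglia, the brain's own immune cells, had been enriched. The mice were on a B6D2F1/J background, although 1 HEM library of 13 months carried no strain label. In HEM mice a transgene on the X chromosome expressed human α-synuclein in its wild-type form, which aggregates in Parkinson disease, from the murine Thy-1 promoter, which is active mainly in neurons. WT mice served as controls. At 13 months 8 libraries were HEM and 4 were WT, and at 3 months 4 were HEM and 4 were WT. The series' design text counts fewer WT mice at 3 months than the labels do. The labels do not say whether each library came from a separate animal, so p-values measure the spread between these libraries. The 13-month and 3-month libraries were deposited as separate sets with different CpGs listed, so age and set cannot be told apart. The deposited values are percentages without read counts, so read depth is unknown and counting intervals are left out.

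In mammals Dnmt3a and Dnmt3b place methyl groups on unmethylated CpGs, and Dnmt1 copies the marks to the new strand after replication, to which Uhrf1 brings it by binding hemimethylated DNA. Hells is a chromatin remodeller that gives these enzymes access to packed DNA. The TET enzymes oxidise methylcytosine, Tdg cuts out the oxidised bases for repair, and Mbd2 binds methylated CpGs and recruits a repressor complex. Other annotated genes overlap the regions of Dnmt1, Dnmt3a, Tet1, Tet3, Tdg and Mbd2, among them Glt8d2 beside Tdg and the antisense RNA Dnmt3aos, and their CpGs are counted here too. CpG-rich promoters are usually unmethylated, whereas gene bodies are usually methylated.

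The RefSeq promoter table (GRCm38.p6, the assembly of the mm10 build) held 14 windows for 9 of the 10 genes, each reaching 250 bases before and 50 bases after a listed start, and none for Mbd2. Windows of these genes held 2 to 57 CG dinucleotides with a median of 28, against a median of 7 over all 32851 windows. Of the listed CpG positions in all windows, 99.51% lay on a CG, so that the coordinates of the files and the table match. Windows are shown for Dnmt1, for which the measured start is not the outermost listed start, for both ends of the range in Dnmt3a, and for Uhrf1, Tet1 and Tet2, since these show where methylation was read. Each is written 5′ to 3′ on the strand of the gene, with the CGs that hold a measured position in capitals.
Dnmt1, chr9:20952574-20952873, minus strand: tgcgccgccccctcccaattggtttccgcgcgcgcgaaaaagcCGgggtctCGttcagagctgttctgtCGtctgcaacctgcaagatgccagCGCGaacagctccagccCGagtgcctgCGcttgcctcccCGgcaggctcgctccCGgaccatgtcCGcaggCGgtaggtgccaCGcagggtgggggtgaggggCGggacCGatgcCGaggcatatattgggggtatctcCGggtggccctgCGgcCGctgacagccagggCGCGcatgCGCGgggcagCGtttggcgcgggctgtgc
Dnmt3a outer start, chr12:3806730-3807029, plus strand: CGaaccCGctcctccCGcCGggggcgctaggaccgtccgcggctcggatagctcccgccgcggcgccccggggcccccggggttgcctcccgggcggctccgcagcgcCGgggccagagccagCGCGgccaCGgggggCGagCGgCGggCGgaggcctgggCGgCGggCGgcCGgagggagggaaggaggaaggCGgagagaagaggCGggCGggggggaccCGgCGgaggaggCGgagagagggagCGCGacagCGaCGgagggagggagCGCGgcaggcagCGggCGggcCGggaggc
Dnmt3a inner start, chr12:3891494-3891793, plus strand: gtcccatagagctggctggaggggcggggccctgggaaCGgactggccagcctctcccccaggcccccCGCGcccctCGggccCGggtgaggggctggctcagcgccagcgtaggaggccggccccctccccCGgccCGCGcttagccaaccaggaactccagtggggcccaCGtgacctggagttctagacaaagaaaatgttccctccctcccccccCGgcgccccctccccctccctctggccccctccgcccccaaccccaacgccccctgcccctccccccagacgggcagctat
Uhrf1, chr17:56304063-56304362, plus strand: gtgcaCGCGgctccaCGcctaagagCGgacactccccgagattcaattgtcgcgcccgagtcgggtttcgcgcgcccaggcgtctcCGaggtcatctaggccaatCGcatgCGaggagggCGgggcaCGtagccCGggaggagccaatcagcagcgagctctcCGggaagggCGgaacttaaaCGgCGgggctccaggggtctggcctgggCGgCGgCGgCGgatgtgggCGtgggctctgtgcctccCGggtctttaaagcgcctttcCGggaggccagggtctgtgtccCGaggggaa
Tet1, chr10:62887275-62887574, minus strand: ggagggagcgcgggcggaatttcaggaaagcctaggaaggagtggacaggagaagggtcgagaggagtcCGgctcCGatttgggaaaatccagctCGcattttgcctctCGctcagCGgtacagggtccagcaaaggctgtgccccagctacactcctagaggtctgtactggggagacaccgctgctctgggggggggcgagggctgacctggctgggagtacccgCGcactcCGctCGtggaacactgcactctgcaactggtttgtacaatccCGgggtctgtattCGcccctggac
Tet2, chr3:133544341-133544640, minus strand: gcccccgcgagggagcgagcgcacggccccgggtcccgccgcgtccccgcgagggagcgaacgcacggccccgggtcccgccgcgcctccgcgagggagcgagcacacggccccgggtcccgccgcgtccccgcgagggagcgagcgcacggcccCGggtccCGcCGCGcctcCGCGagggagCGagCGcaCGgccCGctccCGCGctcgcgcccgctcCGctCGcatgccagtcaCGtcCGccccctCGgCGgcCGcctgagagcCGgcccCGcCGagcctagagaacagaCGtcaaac

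Every measured CpG in these promoter windows was lowly methylated, here a mean under 20% over the libraries, in all 9 genes with a window. There were 64 such positions in Dnmt3a, 28 in Tet3, 26 in Dnmt1, 24 in Tet2, 23 in Uhrf1, 20 each in Dnmt3b and Hells, and 12 each in Tet1 and Tdg. The highest value in a single library was 20.6%, at the inner start of Dnmt3a, followed by 14.0% in Tet3 and 13.6% in Tet1. In the Tet2 and Tdg windows no library exceeded 2.56%, and in the Uhrf1 window none exceeded 1.90%. Among promoter windows with at least 10 measured positions, low methylation was the rule. Of 7136 such windows over the genome, 7068 had a mean under 20%, which is 99%, and so did all 11 of these genes. Most of the 32851 windows had fewer measured positions, and this share does not cover them.

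Window means were under 1% except at 2 windows. Windows at the outer starts of Dnmt1 and Uhrf1 held no measured position and have no mean. The Dnmt1 window averaged 0.178%, the outer Dnmt3a window 0.179%, the Dnmt3b window 0.133%, the Uhrf1 window 0.0999% and the Hells window 0.193%. The inner Dnmt3a window averaged 2.77% and the Tet1 window 1.80%, against 0.107% for Tet2, 0.655% for Tet3 and 0.108% for Tdg. The sequences above show that the inner Dnmt3a window holds 18 CGs and the Tet1 window 17, against 46 in the outer Dnmt3a window and 57 in the Tet2 window.

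These low positions formed long runs. In Dnmt3a, 195 consecutive measured positions over 2272 bases (chr12:3806533-3808804) were low, with a mean of 0.199%, and a second run of 18 positions over 627 bases lay at the inner start. Dnmt1 had its run of 37 positions over 625 bases (chr9:20952206-20952830) at the innermost listed start, whereas positions just downstream of its outermost listed start were mostly high, as the plot of methylation along each gene shows. Tet3 had a run of 55 positions over its listed start and another of 94 positions over 1818 bases (chr6:83455235-83457052) at the upper end of the annotated gene, where the promoter table lists no start. Tet1 carried a run of 59 positions over 1602 bases at its start and a shorter run of 10 positions inside the gene, with a mean of 7.21% and single values up to 44.8%. In Mbd2 a run of 94 positions over 1059 bases began at the lower-coordinate end of the gene.

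**Figure D1:**
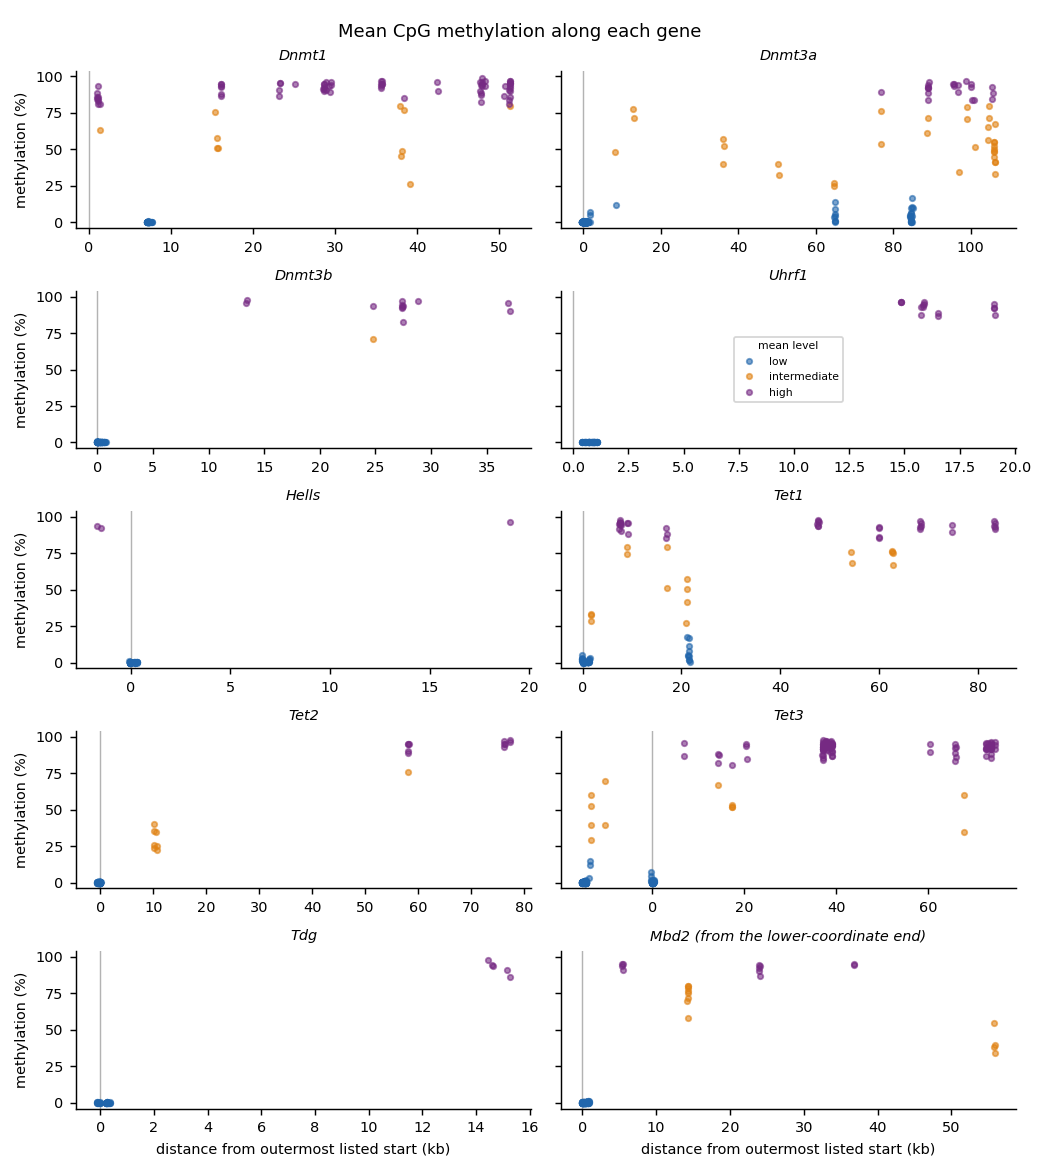
Mean methylation over all libraries (y, percent) of every listed CpG of the 10 genes against its distance from the outermost listed start in the direction of transcription (x, kb; Mbd2 from its lower-coordinate end), coloured by mean level: low under 20%, high above 80%. Low CpGs cluster at starts, 7 kb inside Dnmt1 and at the upper end of Tet3 left of its listed start, while most other CpGs are high and intermediate ones occur in Dnmt1, Dnmt3a, Dnmt3b, Tet1, Tet2, Tet3 and Mbd2.

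Over the CpGs listed at both ages, 70.3% of the 1075 in these genes were low, 7.72% intermediate and 22% high, against 60.6%, 16.7% and 22.7% of all 1132579 CpGs on chromosomes 1 to 19, X and Y, and 67.9%, 13.9% and 18.2% of those in or within 1 kb of any annotated gene. Uhrf1, Hells and Tdg had no intermediate CpG at all, and Dnmt3b had 1. Of the CpGs listed at both ages, Dnmt3a had 33 intermediate ones of 250, Mbd2 12 of 106, Tet3 11 of 236, Tet1 10 of 111, Dnmt1 8 of 97 and Tet2 8 of 65. Between libraries 21 of the 1075, which is 1.95%, spanned at least 50 points over the 20 libraries, against 3.21% of all CpGs. Among intermediate CpGs alone the order was the other way, with 20 of 83, or 24.1%, in these genes against 18% of all, and a median range of 42.1 points against 37.7. Of the 21 in these genes, Dnmt3a held 11, Dnmt1 and Tet3 3 each, and Tet1 and Tet2 2 each.

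The mean over a gene's CpGs depends on which CpGs the assay reads, so the order of the genes describes measured CpGs and not the whole gene. At the CpGs listed at both ages, Dnmt1 was the most methylated in every group, averaging 54.3% ± 1.29 in HEM (SD, n = 8) and 54.4% ± 0.992 in WT (SD, n = 4) at 13 months, and 53.4% ± 0.480 in HEM and 53.5% ± 0.509 in WT at 3 months (SD, n = 4 each). Tet1 followed at 36.3% ± 1.05 in HEM and 36.5% ± 0.789 in WT at 13 months, then came Tet3 with 32.6% ± 0.266 in HEM and 31.99% ± 0.633 in WT. These 3 genes stood apart from each other by more than the spread of their libraries.

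Uhrf1 and Tet2 were neighbours, and the ranges of their libraries met. At 13 months Uhrf1 averaged 21.6% ± 0.199 in HEM and 21.6% ± 0.168 in WT, while Tet2 averaged 20.7% ± 0.959 in HEM and 20.6% ± 1.09 in WT. Dnmt3b averaged 17.2% ± 0.339 in HEM and 17.2% ± 0.259 in WT at that age, and Mbd2 averaged 17.0% ± 1.01 in HEM and 17.3% ± 0.638 in WT, so that this pair too could not be ordered. Dnmt3a averaged 13.9% ± 1.03 in HEM and 13.9% ± 0.825 in WT, and some of its libraries lay within the range of Tdg, which averaged 12.2% ± 0.225 in HEM and 12.3% ± 0.226 in WT. Hells, the least methylated, averaged 5.25% ± 0.159 in HEM and 4.95% ± 0.275 in WT. All SDs at 13 months are over 8 HEM and 4 WT libraries.

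The comparison of HEM with WT asks whether α-synuclein overexpression goes with another methylation of these genes. No gene of the list passed the test at either age. Features with a mean of 5% to 95% were tested with limma on log2((percent + 1) / (100 - percent + 1)), and a call needed a Benjamini-Hochberg adjusted p under 0.05 over all features together with a difference of at least 5 points for a gene region. At 13 months 0 of the 10 genes were called and 0 had an unadjusted p under 0.05, against 0% and 4.05% of 19451 gene regions. At 3 months 0 of 10 were called and 0 had an unadjusted p under 0.05, against 0% and 4.03% of 20189 gene regions.

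The differences between HEM and WT were small in points. At 13 months the largest was in Tet3, the TET enzyme common in neurons, which averaged 32.9% ± 0.279 in HEM (SD, n = 8) and 32.2% ± 0.629 in WT (SD, n = 4), a difference of 0.634 points (limma adjusted p = 0.99996). At 3 months the largest were in Tet2, with 19.2% ± 0.942 in HEM and 19.7% ± 0.595 in WT, and in Uhrf1. The median difference over the 10 genes was 0.0013 points at 13 months and -0.139 points at 3 months, beside -0.0187 and -0.0500 over all gene regions. The 95% intervals of the 10 differences, from limma on the percent scale, lay between -1.56 and 1.52 points at 13 months and between -1.94 and 1.93 points at 3 months.

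Uhrf1, which guides Dnmt1, was the only gene of the list whose HEM and WT libraries did not overlap. At 3 months its HEM libraries 1, 2, 3 and 7 had region means of 20.8%, 21.2%, 20.7% and 21.2%, against 21.3%, 21.3%, 21.7% and 21.9% in WT libraries 1, 3, 4 and 5. All 4 HEM libraries were thus lower, but the nearest libraries of HEM and WT were almost equal and the difference of -0.578 points gave a limma adjusted p of 0.9999. Groups did not overlap in 2.31% of all gene regions at 3 months and in 0.308% at 13 months, where none of the 10 genes was among them.

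**Figure D2:**
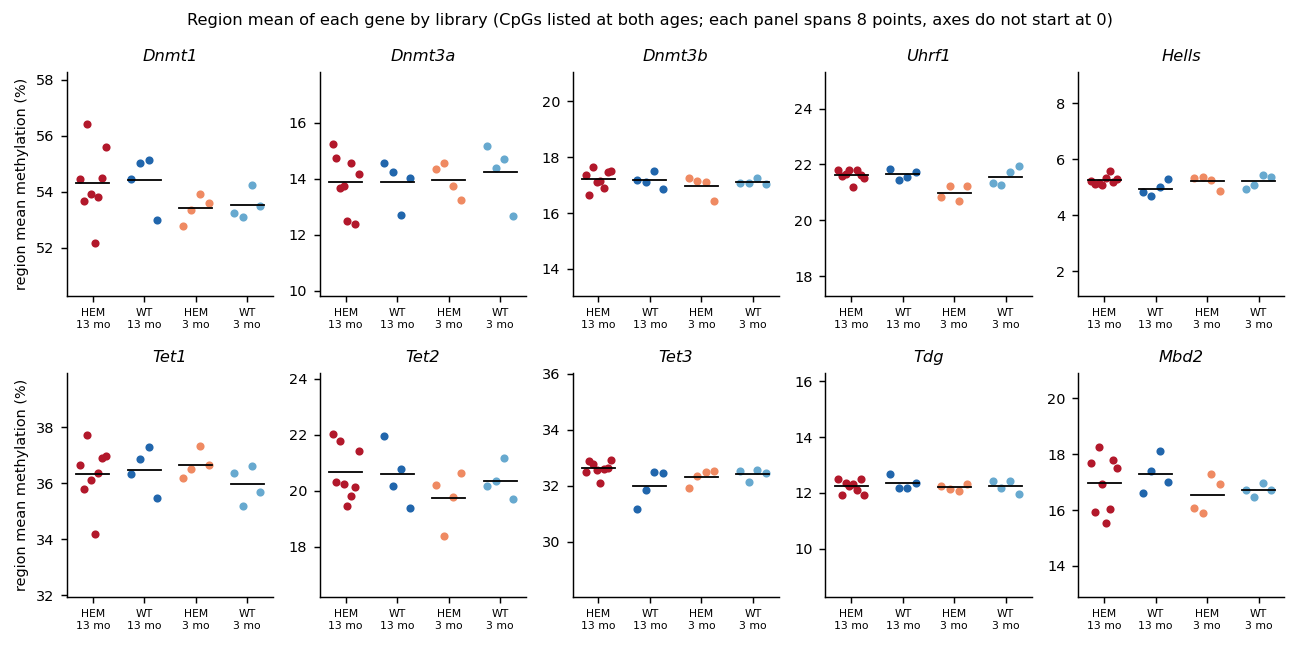
Region mean methylation (y, percent; CpGs listed at both ages) of the 10 genes in each of the 20 libraries (points) with group means (lines), for HEM and WT at 13 months and HEM and WT at 3 months. Each panel spans 8 points; group means lie within about 1 point of each other in every panel, and the 3-month HEM libraries of Uhrf1 lie just below the WT ones.

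Between ages, at the CpGs listed at both, 0 of the 10 genes were called in HEM and 0 in WT, and 0 had an unadjusted p under 0.05 in limma in either. The background was 0% called and 12.9% under an unadjusted 0.05 over all gene regions in HEM, and 0.00518% and 4.98% in WT. The groups did not overlap in 1.46% of all gene regions in HEM and 2.89% in WT, and in none of these genes. Uhrf1 had the smallest adjusted p in HEM, with 21.6% ± 0.199 in HEM at 13 months (SD, n = 8) and 21.0% ± 0.282 in HEM at 3 months (SD, n = 4), a difference of 0.634 points (limma adjusted p = 0.389). On the percent scale its unadjusted 95% interval was 0.0919 to 1.18 points and left out 0, whereas limma on the log ratio gave an unadjusted p of 0.0513. It was the only interval to leave out 0 among the 10 genes in either age comparison. The share of all gene regions with such an interval is not given. The 10 intervals together lay between -1.58 and 2.40 points in HEM and between -1.98 and 2.28 points in WT. In WT, Uhrf1 averaged 21.6% ± 0.168 at 13 months and 21.6% ± 0.328 at 3 months (SD, n = 4 each). The interaction of genotype and age was called in 0 of the 10 genes, with 0 under an unadjusted p of 0.05, against 0% and 5.18% of all gene regions.

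Hells shows why the CpG set matters between ages. With every CpG of each age its mean was 7.59% in HEM at 13 months and 5.21% in HEM at 3 months, a difference of 2.39 points with a limma adjusted p of 4.1e-07. The 13-month files list 1 more CpG of the gene, which was highly methylated, and without it the HEM means were 5.25% at 13 months and 5.21% at 3 months. Mbd2 had 11 CpGs listed at 3 months only, and its difference between ages in HEM was 1.96 points with every CpG and 0.418 points with the shared ones.

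Single CpGs were tested in the same way with a minimum difference of 10 points. At 13 months 0 of the 279 tested CpGs of these genes were called between HEM and WT and 17 had an unadjusted p under 0.05 in limma, 12 of them higher in HEM, against 0.000881% and 5.82% of all CpGs. At 3 months 0 of 298 were called and 11 had an unadjusted p under 0.05, against 0% and 4.53%. The rest of the 1094 CpGs listed at 13 months and 1149 at 3 months had means under 5% or over 95% and were not tested.

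The CpG with the smallest genotype p at 13 months lay near the upper end of Dnmt3a, at chr12:3911588 within the gene. HEM libraries ran from 73.1% to 88.2% and averaged 80.5% ± 4.68 (SD, n = 8), against 43.9%, 69.6%, 66.0% and 57.0% in WT libraries 1, 2, 6 and 7. All 8 HEM libraries were above all 4 WT libraries, by 21.3 points on average (limma adjusted p = 0.647). The CpG was picked for its small p among many tested, and the share of all CpGs separated in this way is not given. At 3 months the libraries overlapped, with 66.3% ± 5.28 in HEM and 70.1% ± 2.01 in WT (SD, n = 4 each). In Dnmt1, the maintenance enzyme, the CpG at chr9:20943740 averaged 91.9% ± 4.26 in HEM (SD, n = 8) and 74.2% ± 9.77 in WT (SD, n = 4) at 13 months, with 1 WT library inside the HEM range (limma adjusted p = 0.669).

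A CpG of Tet1 at chr10:62812678, far from its start, was among the smallest p-values at both ages, higher in HEM on average at 3 months and lower at 13 months. At 3 months all 4 HEM libraries were at 100%, against 94.7%, 86.1%, 94.2% and 82.4% in WT libraries 1, 3, 4 and 5, a difference of 10.7 points (limma adjusted p = 0.262). The genotypes were also fully apart at the other CpGs picked for a small p at 3 months. How many of all CpGs separate like this is not given, and this Tet1 CpG too was picked for its small p. At 13 months it averaged 92.7% ± 4.89 in HEM (SD, n = 8) and 98.3% ± 2.01 in WT (SD, n = 4), with overlapping libraries (limma adjusted p = 0.783). The other CpGs named by the rule at 3 months were chr12:3902596 in Dnmt3a, at 89.5% ± 5.26 in HEM and 98.0% ± 1.57 in WT, and chr6:83367144 in Tet3, with HEM at 95.7% ± 1.73 and WT at 87.2% ± 5.32 (SD, n = 4 each), both with a limma adjusted p of 0.985.

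**Figure D3:**
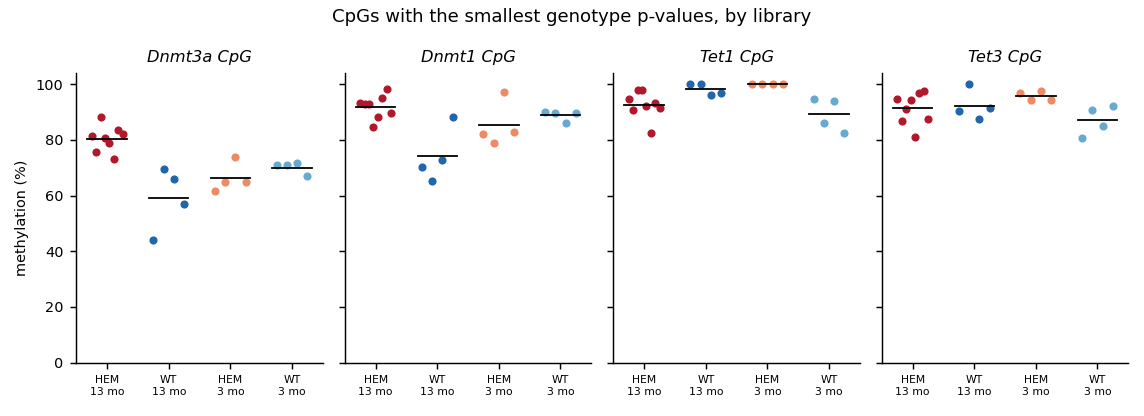
Methylation (y, percent, from 0) in each library (points, with group means as lines) at the CpGs with the smallest genotype p-values that were listed at both ages: Dnmt3a chr12:3911588, Dnmt1 chr9:20943740, Tet1 chr10:62812678 and Tet3 chr6:83367144. The Dnmt3a CpG has all 13-month HEM points above the WT points and no such order at 3 months, and the Tet1 CpG is at 100% in the 4 HEM libraries at 3 months. These CpGs were picked for their small p-values, and none was called.

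Between ages 0 of 264 tested CpGs were called in HEM and 0 of 281 in WT, with 20 and 18 under an unadjusted p of 0.05 in limma. The background was 0.0305% called and 10.4% unadjusted in HEM, and 0.0183% and 4.79% in WT. In HEM the smallest p-values were in Tet1 at chr10:62818980, with 91.6% ± 3.85 at 13 months and 97.4% ± 3.84 at 3 months, and in Dnmt3a at chr12:3808804, the last low position of the long run at its outer start, with 9.82% ± 4.96 at 13 months and 3.00% ± 0.527 at 3 months. The Dnmt3a CpG at chr12:3871919 was next, with 18.04% ± 9.07 at 13 months and 6.74% ± 2.63 at 3 months (SD, n = 8 at 13 months and 4 at 3 months). Adjusted p-values of these 3 in limma were 0.339, 0.355 and 0.358.

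In WT the Tet1 CpG at chr10:62812678 again came first, at 98.3% ± 2.01 at 13 months and 89.3% ± 6.10 at 3 months. Just past the inner start window of Dnmt3a, chr12:3891930 averaged 27.4% ± 2.89 in WT at 13 months and 13.2% ± 3.75 in WT at 3 months. The ages did not overlap there, but this CpG too was picked for its small p, and the share of all CpGs so separated is not given. In HEM the same CpG averaged 12.9% ± 9.26 at 13 months and 17.0% ± 5.36 at 3 months, so that the group mean was highest in WT at 13 months, and the limma adjusted p for WT was 0.975. Uhrf1 at chr17:56322407 averaged 84.6% ± 10.4 in WT at 13 months and 96.5% ± 2.39 in WT at 3 months (SD, n = 4 each). The interaction was called at 0 of 275 CpGs, with 15 under an unadjusted p of 0.05 in limma, against 0.000224% and 6.28% of all CpGs.

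Neighbouring CpGs were joined into stretches, runs of at least 3 CpGs each at most 200 bases from the last, since levels within a gene fell into separate runs. The 10 genes held 68 stretches with 1024 CpGs, of which 18 were low, 37 high and 13 intermediate. With a minimum difference of 5 points, 0 of 49 tested stretches were called between HEM and WT at 13 months and 0 of 51 at 3 months, and 2 and 4 had an unadjusted p under 0.05 in limma. The background was 0% called and 5.53% unadjusted at 13 months, and 0% and 4.48% at 3 months. Between ages 0 of 49 were called in HEM and 0 of 50 in WT, with 7 and 2 under an unadjusted 0.05, against 0.00282% and 13.7% in HEM and 0.00565% and 5.08% in WT. The interaction was called in 0 of 48, with 6 unadjusted, against 0% and 6.39%.

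Dnmt3a had 4 of the 13 intermediate stretches, while Dnmt1 had 1 and Tet1, Tet2, Tet3 and Mbd2 had 2 each. The largest genotype difference among them was at chr12:3911508-3911605 in Dnmt3a, 4 CpGs that include the CpG at chr12:3911588. The stretch averaged 75.5% ± 5.64 in HEM (SD, n = 8) and 61.9% ± 12.8 in WT (SD, n = 4) at 13 months, a difference of 13.5 points (limma adjusted p = 0.880), and 63.4% ± 2.30 in HEM and 64.8% ± 7.31 in WT at 3 months (SD, n = 4 each). WT library 1, at 43.6%, was far below the other 13-month libraries, and without it the difference was 7.45 points (limma adjusted p = 0.99994). In Tet3 a stretch of 3 CpGs at chr6:83367144-83367193 averaged 96.5% ± 1.32 in HEM and 91.1% ± 1.92 in WT at 3 months (limma adjusted p = 0.993).

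Mbd2 had an intermediate stretch near its upper-coordinate end, chr18:70623989-70624139, with the largest difference in points between ages in HEM among the intermediate ones. It averaged 46.2% ± 13.3 in HEM (SD, n = 8) and 47.0% ± 7.30 in WT (SD, n = 4) at 13 months, and 31.9% ± 1.70 in HEM and 36.9% ± 5.27 in WT at 3 months (SD, n = 4 each). The 4 HEM libraries at 3 months lay between 29.8% and 33.9%, whereas those at 13 months ran from 28.8% to 62.1%, so the ages overlapped. The difference between ages was 14.3 points in HEM (limma adjusted p = 0.324) and 10.1 points in WT (limma adjusted p = 0.934). Both intermediate stretches of Tet2, at about 10 kb inside the gene, had close means in the 13-month groups, with 28.6% ± 8.53 in HEM and 28.2% ± 12.02 in WT at the lower-coordinate one.

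**Figure D4:**
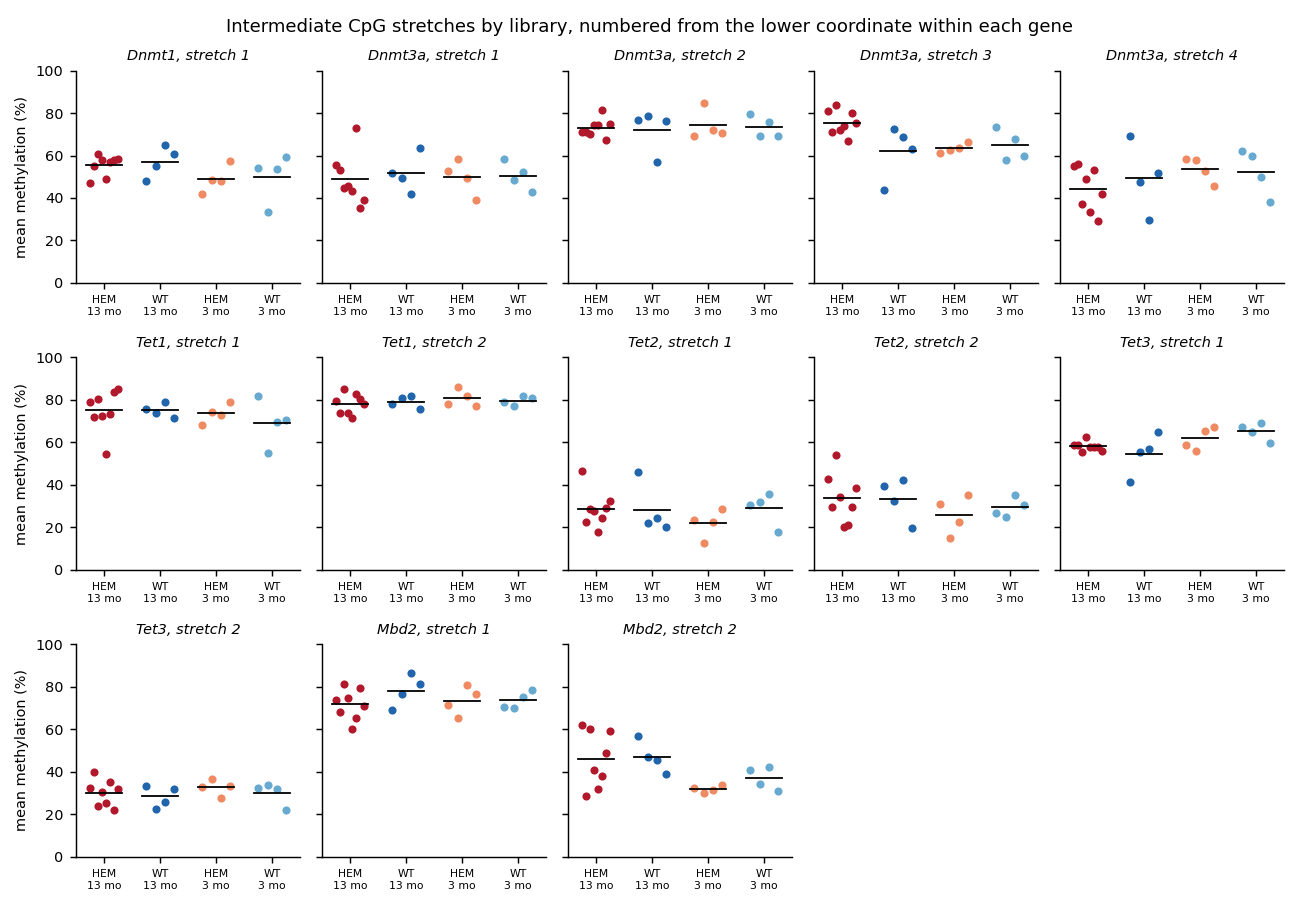
Mean methylation (y, percent, from 0 to 100) of the 13 intermediate stretches in each of the 20 libraries (points, with group means as lines), numbered within each gene from the lower coordinate. Spread within groups exceeds the difference between groups in most panels; in Dnmt3a stretch 3 the 13-month HEM points are mostly above the WT points, and in Mbd2 stretch 2 the 3-month HEM points lie close together between 29.8% and 33.9%.

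A stretch at the far end of Dnmt3a varied widely within each genotype and age. The 11 CpGs at chr12:3912975-3913268 together ran from 29.0% to 69.3%. HEM libraries 1, 3, 6, 7, 8, 10, 11 and 13 at 13 months had 55.2%, 56.0%, 36.9%, 49.1%, 33.6%, 53.2%, 29.0% and 41.7%, against 69.3%, 47.7%, 29.8% and 51.6% in WT libraries 1, 2, 6 and 7. At 3 months HEM libraries 1, 2, 3 and 7 had 58.3%, 57.9%, 52.9% and 45.7%, against 61.9%, 59.8%, 49.98% and 38.0% in WT libraries 1, 3, 4 and 5. HEM and WT overlapped throughout, with adjusted p-values of 0.950 at 13 months and 0.998 at 3 months in limma.

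The methylation of microglia marker genes, and of leukocyte and border macrophage marker genes, moved with this stretch. The mean over the regions of 12 of 17 listed microglia markers ran from 40.7% to 58.4% between libraries, with 48.2% ± 5.89 in HEM (SD, n = 8) and 51.6% ± 5.66 in WT (SD, n = 4) at 13 months, and 53.9% ± 4.32 in HEM and 52.9% ± 3.10 in WT at 3 months (SD, n = 4 each). Regions of the neuron list ran from 14.2% to 16.2%, of the astrocyte list from 32.7% to 37.9%, of the oligodendrocyte lineage list from 31.4% to 34.7%, of the vessel list from 48.7% to 60.2% and of the leukocyte and border macrophage list from 57.1% to 67.5%. In a limma fit over all stretches with a term for each group, the Dnmt3a stretch was 19.6 points higher for each 10 points of the marker level (adjusted p = 5.77e-05). The slope was 19.6 points in the 12 libraries of 13 months alone (adjusted p = 0.00322) and 19.6 points in the 8 of 3 months alone (adjusted p = 0.185), and stayed between 17.9 and 21.4 points without each library in turn. With the leukocyte and border macrophage list of 5 measured genes in place of the microglia list, the slope was 36.8 points (adjusted p = 0.00017), so the relation is not particular to microglia markers. Nor is it particular to this stretch, since 11.4% of all stretches were called with the microglia list and 11.5% with the leukocyte and border macrophage list. With the vessel, astrocyte, neuron and oligodendrocyte lineage lists the adjusted p lay between 0.117 and 0.825. A difference in the share of cell types and a difference within cells cannot be told apart in such mixed DNA, and the part of either was not tested.

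Of 48 tested stretches of these genes, 4 followed the marker level in that fit, 3 upwards and 1 downwards, against 11.4% of all 70989 stretches. They are the Dnmt3a stretches at chr12:3912975-3913268 and chr12:3842990-3843167, at 14.6 points (adjusted p = 0.00486), the Tet3 stretch at chr6:83455017-83455367, which borders the low run at the upper end of the gene, at 8.21 points (adjusted p = 0.0109), and the Mbd2 stretch at chr18:70582420-70582544, at -8.75 points for each 10 points of the marker level (adjusted p = 0.0149). Within 1 age, 1 of 48 tested stretches of these genes was called in the 13-month libraries, against 4.16% of all stretches. It was the first of those in Dnmt3a. In the 3-month libraries 0 of 49 were called and 7 had an unadjusted p under 0.05 in limma, against 0.303% and 14.4% of all stretches. The other 3 of the 4 stretches had adjusted p-values of 0.0505, 0.0727 and 0.146 at 13 months, in the order given. At 3 months these were 0.336, 0.513 and 0.210, with slopes of the same sign. With the leukocyte and border macrophage list the adjusted p-values of these 3 were 0.0459, 0.075 and 0.0145, and the Mbd2 stretch also passed with the neuron and oligodendrocyte lineage lists, with slopes of the opposite sign. Of all stretches, 11.5% passed with the leukocyte and border macrophage list, 9.41% with the neuron list and 7.44% with the oligodendrocyte lineage list. Leaving out 1 library at a time kept the Dnmt3a and Tet3 calls in 20 of 20 fits and the Mbd2 call in 19, its largest adjusted p being 0.0631. These fits cover only the 4 stretches already called and reuse nearly all the same libraries. They show only how far a call rests on a single library. The Dnmt3a stretch at chr12:3911508-3911605, with the largest genotype difference, had a slope of -7.99 points (adjusted p = 0.0812), and with the marker level in the fit its HEM minus WT difference at 13 months was 10.3 points (limma adjusted p = 0.945).

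**Figure D5:**
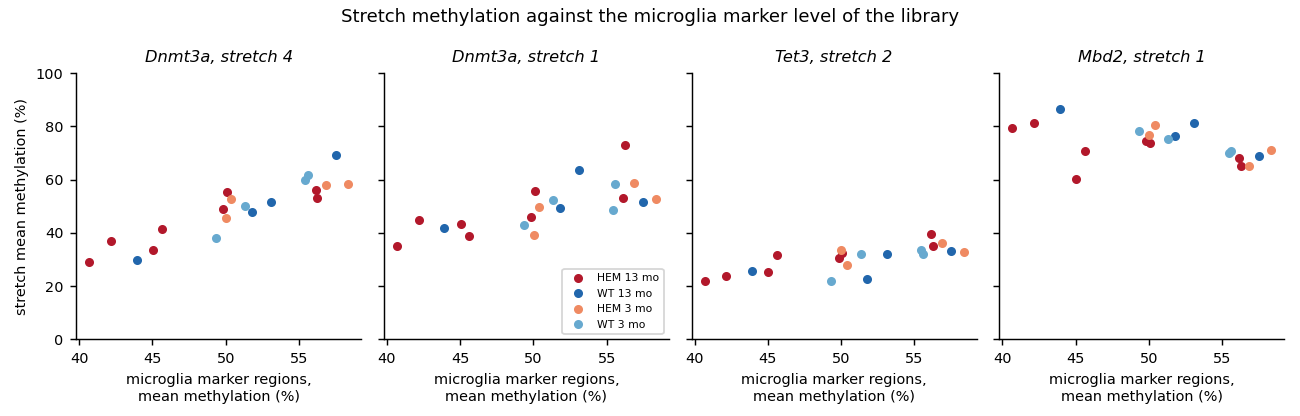
Mean methylation of 4 stretches of these genes (y, percent, from 0 to 100) against the mean methylation of the microglia marker regions of the same library (x, percent, axis not from 0), 20 libraries coloured by group. Dnmt3a stretch 4 runs from 29.0% in the library with the lowest marker level to 69.3% in a library near its highest, Dnmt3a stretch 1 and Tet3 stretch 2 slope upwards less steeply, and Mbd2 stretch 1 slopes downwards.

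The CpG of widest range lay in an intermediate stretch in 4 of the 10 genes, in a high stretch in Hells, and in no stretch in the other 5. In Dnmt3a it was chr12:3913007, from 22.4% to 87.0%, in Tet3 chr6:83455058, from 20.8% to 78.8%, and in Tet2 chr3:133534157, from 13.8% to 71.2%. In Tet1 it was chr10:62812655, where 19 libraries were at 77.4% or above and HEM library 8 at 13 months was at 35.7%. The mean of that library over CpGs, 29.3%, was also the lowest of the 20 libraries. Dnmt1 at chr9:20921528 ran from 39.5% to 96.7% and Mbd2 at chr18:70623989 from 29.8% to 78.2%. The widest ranges in the other genes were narrower, namely 36.9 points in Uhrf1, 26.2 in Dnmt3b, 22.3 in Tdg and 17.7 in Hells.

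The wider pathway was given by 39 other genes in 3 roles, writers with their cofactors, erasure with base repair, and CpG-binding readers, of which 25 had a region mean that could be tested. In limma 0 of 25 were called between HEM and WT at 13 months and 0 had an unadjusted p under 0.05, and at 3 months 0 were called and 1 had an unadjusted p under 0.05, beside the 4.05% and 4.03% of all gene regions given above. The smallest p at 13 months was for Apobec1, a cytidine deaminase, at 60.9% ± 2.58 in HEM (SD, n = 8) and 57.7% ± 1.82 in WT (SD, n = 4), followed by Cxxc5, a CpG-binding zinc finger protein, at 17.5% ± 0.870 in HEM and 16.4% ± 1.36 in WT. At 3 months it was Zbtb24, whose loss in humans gives an immunodeficiency with undermethylated satellites, at 14.1% ± 0.761 in HEM and 13.0% ± 0.582 in WT, and then Zfp57, which protects imprinted marks, with HEM at 23.7% ± 1.26 and WT at 22.1% ± 0.870 (SD, n = 4 each). The median difference over the 25 was -0.0611 points at 13 months and 0.0694 at 3 months. Between ages 0 were called in HEM and 0 in WT, with 3 and 0 under an unadjusted 0.05, beside 12.9% and 4.98% of all gene regions, and the interaction was called in 0 with 1 unadjusted, beside 5.18%.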

How the data were processed

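Reduced representation bisulfite sequencing gave 1 deposited file of percent methylation per CpG for each of 20 libraries. The submitters' processing notes name Bowtie2, methylKit and mm10, and no versions or coverage filter are given in the sources used here. The authors deposited percent values without read counts, so depth is unknown. All 13-month files list 1151247 CpGs and all 3-month files 1234494. The 21 unnamed columns of the tables of all libraries were not used. Groups came from the labels. Percent values were put on the scale given in the report and compared with limma (version 3.58.1, R version 4.3.3) on chromosomes 1 to 19, X and Y, with Benjamini-Hochberg adjustment over all features; tests by read counts were not possible. Gene regions are RefSeq genes with 1 kb either side and at least 3 CpGs. Positions on either strand count apart. Named CpGs were those called, the 3 of smallest p in each comparison of genotype or of age, and the widest range in each gene; named stretches were chosen after their values were seen. Genes and lists were chosen with earlier results of these data known. Libraries of an age differed by 3.39 to 5.09 points on average, and none was a duplicate. The fits were also run on simulated data. Changes planted there were larger than any difference of these gene regions, and the outcome is not given.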

Additional observations from a re-analysis of the deposited data

Results flagged for a closer look

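Among 92 sets of libraries (10 gene regions and 13 intermediate stretches in 4 groups), 7 held a library far from the rest of its group by Dixon's test at 95%, where chance gives about 1 in 20. In HEM at 13 months, Uhrf1 was at 21.2% and the Tet1 stretch from chr10:62824634 at 54.3%, both in library 8. That library had the lowest mean over CpGs of the 20 libraries, 29.3%. The Tet3 stretch from chr6:83424253 was at 62.7% in library 7 of the same group. In WT at 13 months, the Dnmt3a stretch from chr12:3883724 was at 57.2% in library 6 and the Tet2 stretch from chr3:133533720 at 46.0% in library 1. In WT at 3 months, the Dnmt3b region was at 16.6% in library 4 and the Tet3 stretch from chr6:83455017 at 22.0% in library 5.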

How the results depend on the processing

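In limma, the counts of called gene regions, CpGs and stretches of these genes were 0 in every alternative fit run. Between 2 groups a region call needed 5 points, whereas the 95% intervals of the main fits lay between -1.98 and 2.40 points. The region counts of 0 therefore say little there. Between ages the smallest adjusted p of an alternative region fit in limma was 4.1e-07 in HEM and 0.00032 in WT, with differences under 5 points. The HEM value is that of Hells with every CpG of each age, where the 13-month files list 1 more, highly methylated CpG. In WT, Hells averaged 7.45% at 13 months and 5.21% at 3 months with every CpG, against 4.95% and 5.21% with the shared ones. Each of the 5 comparisons had 19 to 31 such fits for regions and 14 to 26 each for CpGs and stretches, of which 8 to 20 left out a library and the others changed the scale, offset, mean filter, variance, strands, flanks, minimum of CpGs or added the microglia level. With a replicate block the counts of called regions, CpGs and stretches between HEM and WT at either age, and between ages in HEM, were also 0. Correlations of deviations between same-numbered libraries were 0.0919, 0.219 and 0.0399 at 13 months and 0.0492 and -0.109 at 3 months. Those of differently numbered libraries are not given, so whether same-numbered libraries pair cannot be said. Of 1175 recomputed differences of gene regions, 1160 moved by less than 1 SD between libraries and 98 changed sign. No region of these genes was called in any fit, so no change of sign could fall on a called value. With a range of 30 points in place of 50, 98 of the 1075 CpGs of these genes varied widely, which is 9.12%, against 16.5% of all CpGs. Of 40 group levels, 17 moved by more than 1 SD with CpGs listed at both ages only. Stretches, their slopes and the use of all CpGs of each age were added after seeing the data. Unknown read depth limits every value.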
